A study of Homo sapiens with 8 samples.

Results

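CFPAC1 is an established human cell line from pancreatic ductal adenocarcinoma, and the series derived clones from it by dilution after infection with a lentiviral CRISPR plasmid. Clone 1 was compared here with clone 4, the pair of control clones of that cell line, each carrying the plasmid that the labels spell lentiCRIPSv2 with no guide named. The comparison covered all 31961 peaks of H3K27ac, acetylation of lysine 27 on histone H3, and 4 of the 8 libraries of the series. Each control clone gave 1 library after 2 hours of hIFNb and 1 library without treatment. The other 4 libraries came from clones 11 and 13, which carry the plasmid with wild-type Cas9 and a guide RNA against IRF1, and were treated the same way. Chromatin was immunoprecipitated with the Abcam antibody ab4729. Each clone is a line grown from its own founder, so that a difference between clone 1 and clone 4 describes this pair of lines. The clones are also confounded with the ending of the column names, R1 for clones 1 and 11 and R2 for clones 4 and 13, and what that ending marks cannot be told apart from the clone.

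H3K27ac is laid down by the acetyltransferases p300 and CBP and marks active promoters and enhancers, while the machinery of Polycomb and of DNA methylation keeps silent regions free of it. Pancreatic cancer lines carry gains and losses of chromosomes, and cells of such a line need not share them. The amount of DNA recovered from a region in a ChIP experiment scales with the number of copies of that region as well as with the acetylation of each copy. DNA copy number was not analysed here, so more copies and more acetylation per copy cannot be told apart in any value below.

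Values are the deposited scores, normalised peak counts that the authors rounded to whole numbers. The 4 control libraries had totals between 3408527 and 3460390, and the IRF1-guide libraries between 3277561 and 3317881. Differences are clone 1 minus clone 4 on the log2(score + 1) scale, matched by treatment, with standard errors (SE) from limma. A feature was called at an adjusted p under 0.05 after Benjamini-Hochberg adjustment over all features. With 1 library per clone and treatment, the test measures how steady the difference was between the libraries with and without hIFNb, against the spread estimated over all 8 libraries, and nothing says that these libraries came from separate cultures. Markers of pancreatic ductal epithelium with a promoter peak included KRT7, which scored 654 with hIFNb and 746 without in clone 1, against 558 and 629 in clone 4, and SOX9, which scored 289 and 217 in clone 1, against 270 and 219 in clone 4. Of 17 markers of other cell types 4 had a promoter peak (CPA1, PECAM1, COL1A1 and CD14), with sums of 1062 and 1456 in clone 1 and 814 and 1109 in clone 4. CPA1, an acinar marker within a broad peak over CPA5 on chromosome 7, made up most of these sums. The other 13, PTPRC and CD3E among them, had no promoter peak, and the part of other cells in the results was not tested. KRT19 and CFTR had no promoter peak of their own.

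The differences followed whole chromosomes and long stretches of them. Chromosome 7 stood higher in clone 1, by 0.31 with hIFNb and 0.37 without (fitted difference 0.34 ± 0.03, adjusted p = 2.16e-13 by limma). Chromosome 1 stood lower in clone 1, by 0.35 with hIFNb and 0.28 without (fitted difference -0.31 ± 0.03, adjusted p = 1.04e-12). The other 21 chromosomes lay between -0.15 and 0.06. The SE is the same for every chromosome, since limma pooled the spread over all of them. These p-values, and those of windows below, therefore do not measure replication of a single chromosome or window. Of 23 chromosomes tested, 15 were called (65.2%), 1 higher (4.35%) and 14 lower (60.9%) in clone 1. Between clones 11 and 13 the same fit called 7 (30.4%). Only chromosomes 7 and 1 differed by at least 0.2. Chromosomes 7 and 1 were also called in each of the 20 settings tried, with ranges of 0.30 to 0.44 and -0.35 to -0.22, while small differences elsewhere followed the scaling: with each library centred on its median, 4 chromosomes were higher and 1 lower.

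**Figure D1:**
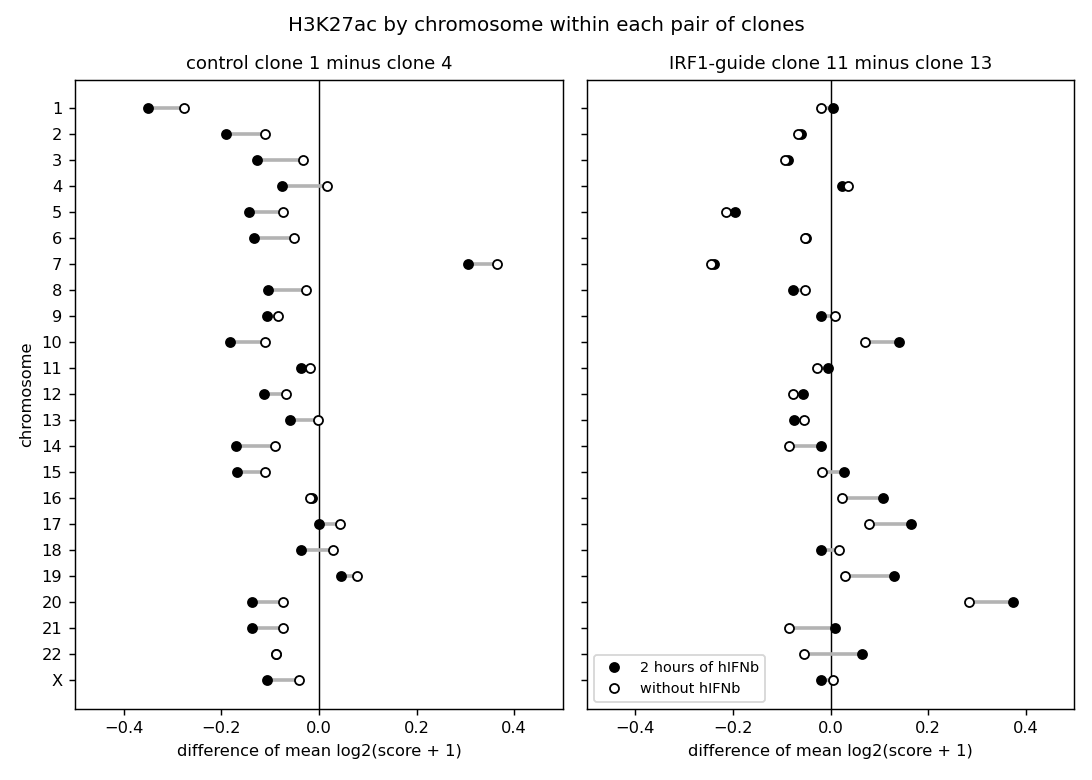
Difference of mean log2(score + 1) over the peaks of each chromosome (rows) for control clone 1 minus clone 4 (left) and IRF1-guide clone 11 minus clone 13 (right), with filled points for hIFNb and open points for untreated libraries. Chromosomes 7 and 1 stand apart in the control pair, at 0.34 and -0.31 over both treatments, and chromosome 20 in the IRF1-guide pair, at 0.33.

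The IRF1-guide clones show which control clone stood apart. Levels are given relative to the mean of all peaks of a library. On chromosome 7, clone 1 lay at 0.13 with hIFNb and 0.17 without, against -0.29 and -0.24 in clone 4, while clone 13 lay at 0.16 and 0.21 and clone 11 at -0.07 and 0.00. Clone 4 was thus the lowest of the 4 clones in each treatment, with clone 1 close to clone 13. On chromosome 1, clone 1 lay at -0.11 and -0.10, against 0.13 in clone 4 in each treatment, with clones 11 and 13 between 0.17 and 0.18. There clone 1 was the lowest, and clone 4 lay near the other clones. The difference between clones 11 and 13 was -0.24 ± 0.03 on chromosome 7 (adjusted p = 2.30e-09) and -0.01 ± 0.03 on chromosome 1 (adjusted p = 0.917).

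Smaller windows of 10 Mb resolved these shifts. Of 301 windows with at least 10 peaks, 156 were called (51.8%), 41 higher (13.6%) and 115 lower (38.2%) in clone 1. Between clones 11 and 13, 26.9% were called. Over the 300 windows of chromosomes 1 to 22 and X, the difference with hIFNb and the difference without had a correlation of 0.888, given as a description since the peaks of neighbouring windows share libraries and may share a segment of DNA. All 155 called windows among them had the same sign in both treatments, as did 257 of the 300. A call rests on the mean difference over both treatments and so favours a like sign, which is no separate evidence. The called windows formed 16 runs of 3 or more neighbours, 3 higher and 13 lower. The excess of lower windows followed the scaling. With each library centred on its median 58 windows were higher and 42 lower, and with quantile normalisation 68 and 56. Runs were not drawn again under these scalings.

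All 16 windows of chromosome 7 formed a single run, from 0.21 to 0.55. The window at 0 to 10 Mb had the largest positive difference of the genome, 0.55 ± 0.05 (adjusted p = 2.87e-22), and 89 of its 122 peaks were higher in clone 1 in both treatments against 6 that were lower in both. Up to 70 Mb clone 4 alone stood low: after subtraction of the library mean and of the mean of the 8 libraries at each peak, its median was -0.49 with hIFNb and -0.32 without, against 0.03 and 0.18 in clone 1, 0.08 and 0.25 in clone 11 and 0.14 and 0.26 in clone 13. From 70 to 160 Mb clone 11 joined clone 4: clone 1 had medians of 0.13 and 0.23 and clone 13 of 0.25 and 0.24, against -0.25 and -0.19 in clone 4 and -0.18 and -0.14 in clone 11. The median of clone 11 minus clone 13 was -0.04 with hIFNb and -0.08 without up to 70 Mb, and -0.41 and -0.40 beyond it.

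On chromosome 1 the longest run held the 11 windows from 140 to 250 Mb, with a median peak difference of -0.40. Of its 1596 peaks, 1110 were lower in clone 1 in both treatments and 80 were higher in both. The lowest windows were at 190 to 200 Mb, with -0.59 ± 0.06 (adjusted p = 5.03e-23), and at 180 to 190 Mb, with -0.58 ± 0.05 (adjusted p = 5.42e-22). A second run covered 40 to 80 Mb with a median of -0.31 and another 0 to 30 Mb with -0.19, while the windows at 30 to 40, 80 to 90 and 100 to 110 Mb were not called.

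Chromosome 4 was not called as a whole, at -0.03 ± 0.03 (adjusted p = 0.403), and held differences of opposite sign. The windows from 0 to 40 Mb were lower in clone 1, and those at 60 to 100 and 110 to 170 Mb were higher. The window at 20 to 30 Mb had the largest difference of all 301, -0.81 ± 0.06 (adjusted p = 2.61e-40), and 115 of its 134 peaks were lower in clone 1 in both treatments. From 10 to 30 Mb the peak medians, over a stretch chosen after the windows were seen as were the other stretches given by medians, were -0.14 with hIFNb and -0.09 without in clone 1, against 0.47 and 0.48 in clone 4, with clones 11 and 13 between -0.18 and -0.09. Clone 4 thus stood above the other clones there. From 60 to 170 Mb the medians were 0.07 and 0.24 in clone 1, against -0.23 and -0.12 in clone 4, and clone 4 was the lowest clone. Of the 6 lowest and 6 highest windows, 10 were called in every setting. The window at 20 to 30 Mb of chromosome 5, at 0.49 ± 0.12 over 17 peaks, was not called on the median over peaks or without matching by treatment. The window at 70 to 80 Mb of chromosome 1 was not called without matching by treatment.

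**Figure D2:**
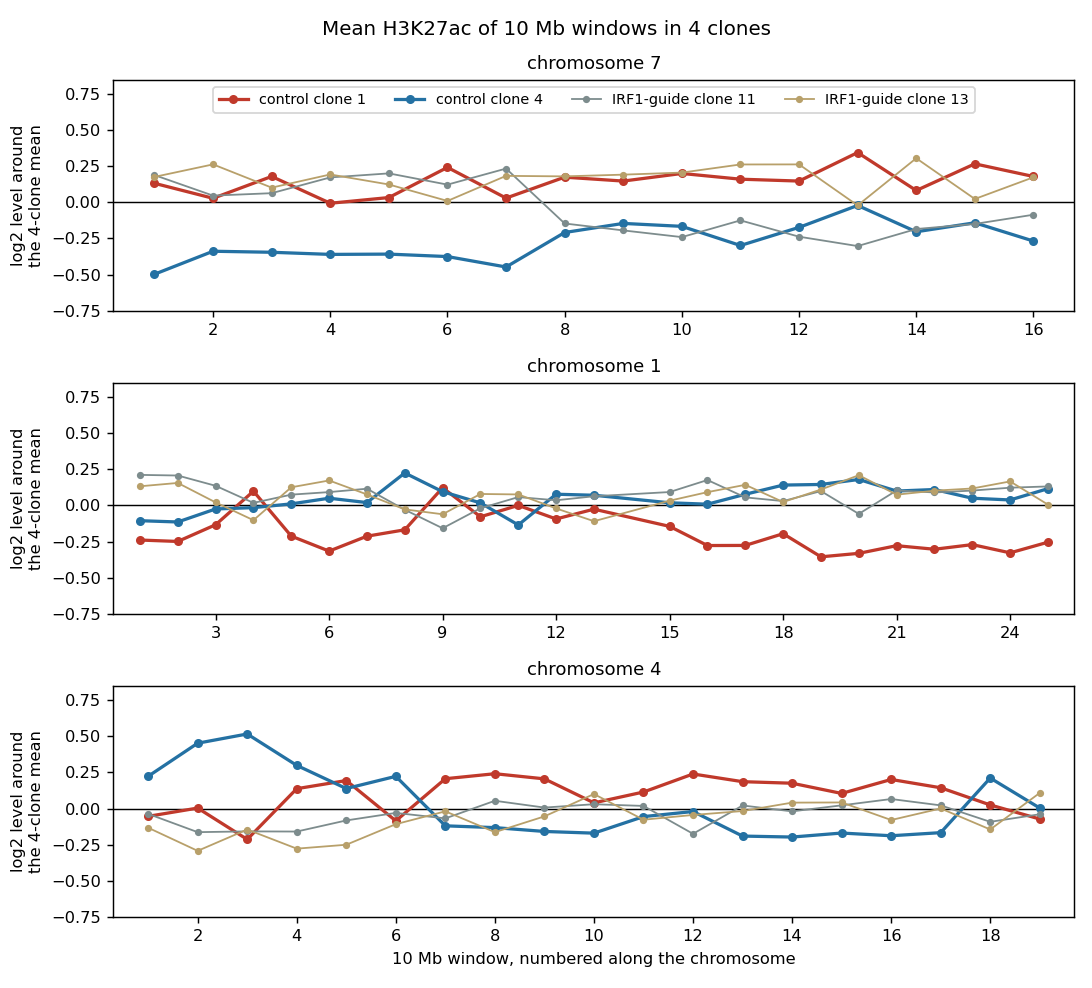
Mean log2(score + 1) of 10 Mb windows (numbered along the chromosome) on chromosomes 7, 1 and 4, as the average of a clone's libraries around the mean of the 4 clones. Clone 4 lies lowest over the first 7 windows of chromosome 7, clone 1 lies lowest over the last 11 windows of chromosome 1, and clone 4 lies highest in windows 2 and 3 of chromosome 4.

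Single peaks were counted next. Of 31961 peaks, 3990 were called (12.5%), 1514 higher in clone 1 (4.74%) and 2476 lower (7.75%). Median centring of each library turned this split to 2259 higher and 1731 lower, and quantile normalisation to 1739 and 2041. Among called peaks 3989 had the same sign in both treatments. The call itself asks for a difference that is steady between treatments, so this is no separate evidence. Of all peaks 63.4% had the same sign. The median absolute difference of the called peaks was 0.741 on the log2 scale. The extremes were -4.76 and 5.03. The same fit called 4151 peaks between clones 11 and 13 (13%), 2138 higher in clone 11 (6.69%) and 2013 lower (6.3%), and the 2 counts were not tested against each other. Across peaks the fitted differences of the pairs had a correlation of 0.125, as a description over pairs with the same column endings.

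The called peaks reflected the chromosomes they lay on. Chromosome 7 held 406 of the peaks called higher, 26.8% of them on 5.1% of all peaks, and 20 called lower. Chromosome 1 held 622 of those called lower, 25.1% of them on 10.3% of all peaks, and 51 called higher. Outside chromosomes 1, 4 and 7, 872 peaks were higher and 1609 lower in clone 1, or 9.88% of 25120. When the mean of each 10 Mb window was subtracted, 2639 peaks were called (8.26%), 1432 higher (4.48%) and 1207 lower (3.78%), and 2017 of these had also been called as scored. Neighbouring called peaks shared their direction in 80.6% of pairs as scored and in 64.1% after this subtraction. For clones 11 and 13 the share as scored was 73.2%. The share without any clustering was not computed. Peaks with a transcription start site (TSS) inside or within 2 kb were called in 11.1% of 11936 cases and the others in 13.3% of 20025.

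Calls were more frequent at higher scores. Of the 7991 peaks with a mean score up to 22.9, 3.65% were called, and of the 7983 with the highest mean scores, 24.2%. The median absolute difference of the called peaks was 1.54 among the lowest and 0.535 among the highest. The median SE was 0.445 and 0.136 in these groups, so that smaller differences were not detectable at low scores.

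Of the 2476 peaks called lower in clone 1, clone 1 alone lay outside the range of the other 3 clones in both treatments at 1200, and clone 4 alone at 685. Of the 1514 called higher, the counts were 536 for clone 1 and 558 for clone 4. The lower peaks of chromosome 1 went mostly with clone 1, which lay outside at 401 of 622, and clone 4 alone lay outside at 81. The higher peaks of chromosome 7 went more often with clone 4, at 181 of 406, than with clone 1, at 90.

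Leaving out control libraries ended most peak calls. Each such fit compares the control clones in the other treatment alone, so the 4 fits hold 2 distinct differences. The spread then comes from the IRF1-guide clones, and lost calls also reflect lost degrees of freedom. Without clone 1 with hIFNb 46 peaks were called, without clone 1 untreated 14, without clone 4 with hIFNb 28 and without clone 4 untreated 14. Leaving out an IRF1-guide library gave 1821 to 1866. Among the 76 called peaks named below by rule, SOX5 alone kept its call with each control library left out and PREX1 with 2 of the 4, so the other calls rest on both libraries of both clones. Chromosome counts fell to 2 without either hIFNb control library and stayed at 15 without either untreated control library.

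Of all peaks, 12 were called with each of the 8 libraries left out in turn, 3 higher and 9 lower in clone 1. The neighbourhood of SOX5, which encodes a transcription factor of the SOX family, held 4 of them on chromosome 12. The peak linked to its TSS (chr12:24596306-24619998) scored 66 with hIFNb and 139 without in clone 1, against 344 and 640 in clone 4, a difference of -2.28 ± 0.10 (limma, adjusted p = 1.71e-14). Clone 11 scored 321 and 533 there and clone 13 scored 1105 and 1549, so clone 1 was lowest and clone 13 highest. Within SOX5 the peak at chr12:24476365-24493584 scored 31 and 53 in clone 1, against 221 and 305 in clone 4 (-2.65 ± 0.15).

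On chromosome 4, 3 of the 12 lay between 22960534 and 23098728, with no protein-coding TSS within 50 kb. The middle peak (chr4:22981379-22991910) scored 69 with hIFNb and 119 without in clone 1, against 403 and 522 in clone 4, 126 and 232 in clone 11 and 179 and 247 in clone 13. Clone 4 stood highest and clone 1 lowest. A peak inside GRIN2B, which encodes an NMDA-type glutamate receptor subunit (chr12:13725539-13729621), scored 2 and 3 in clone 1, against 88 and 98 in clone 4, 32 and 42 in clone 11 and 91 and 95 in clone 13. Clone 1 had almost none of this peak (-4.76 ± 0.28, adjusted p = 3.47e-12). A peak inside CEMIP, a gene of hyaluronan breakdown, scored 138 and 162 in clone 1, against 422 and 499 in clone 4 (-1.61 ± 0.11).

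The higher peaks among the 12 were set by low scores in clone 4. A domain over ABCC3, which encodes a drug and bile-salt export pump, and up to the start of ANKRD40 (chr17:50625499-50711742) scored 5155 with hIFNb and 5159 without in clone 1, against 2733 and 2917 in clone 4. Clones 11 and 13 scored between 4894 and 5116 there, so clone 4 alone stood low (0.87 ± 0.05, adjusted p = 3.47e-12). The promoter of ADCY5, an adenylyl cyclase gene, scored 409 and 670 in clone 1, against 141 and 296 in clone 4 (1.35 ± 0.10, adjusted p = 5.55e-10), and clones 11 and 13 lay between 424 and 669. A peak on chromosome 7 with no protein-coding TSS within 50 kb (chr7:68696863-68709636) scored 172 and 224 in clone 1, against 32 and 49 in clone 4 (2.28 ± 0.15). These genes were chosen because their calls outlasted every library left out.

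A few peaks were nearly absent from clone 1 or from clone 4. By a rule set after seeing the scores, at most 4 in both libraries of a clone and at least 15 in both of the other, 11 peaks were near 0 in clone 1 and 3 in clone 4, and all 14 were called. The same rule gave 0 peaks near 0 in clone 11 against clone 13 and 9 near 0 in clone 13. A pair of peaks inside SLC35F3, a solute carrier gene of chromosome 1, scored 4 and 4 (chr1:234046091-234048990) and 0 and 0 (chr1:234062071-234064376) in clone 1, against 49 and 63 and against 20 and 24 in clone 4. The promoter peak of TMEM233 scored 3 and 2 in clone 1, against 25 and 28 in clone 4, with 28 to 35 in clones 11 and 13. A peak inside PAK3, a p21-activated kinase gene on chromosome X, scored 42 and 38 in clone 1, against 4 and 1 in clone 4, with 39 to 60 in the others. A peak on chromosome 5 (chr5:24167057-24168515) scored 27 and 37 in clone 1, against 0 and 0 in clone 4, with 17 to 41 in the others. Each peak named here scored at least 16 in every library of clones 11 and 13, so the clone near 0 was the exception at these. At another of the 3 counted for clone 4 (chr12:127133763-127134140), clones 11 and 13 scored only 3 to 8, and clone 1 stood apart with 21 and 19, against 4 and 4 in clone 4.

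Promoter sequences are shown for 2 genes per direction, since the position of the peak and the base composition at the start can then be read together. They had the largest difference among the genes named by rule with a promoter peak and a sequence among the 35116 RefSeq promoters used. SLC43A3 (2.38) and TMEM233 (-2.99) differed more but had no sequence there. Each runs from 250 bases before to 50 bases after the RefSeq start on GRCh38.p14, 5′ to 3′ on the strand of the gene, with CG dinucleotides in capitals. IDH2 (chr15:90100572-90100871, minus strand) and QPRT (chr16:29678930-29679229, plus strand) were higher in clone 1, and STK32B (chr4:5051230-5051529, plus strand) and PREX1 (chr20:48827950-48828249, minus strand) were lower.
IDH2: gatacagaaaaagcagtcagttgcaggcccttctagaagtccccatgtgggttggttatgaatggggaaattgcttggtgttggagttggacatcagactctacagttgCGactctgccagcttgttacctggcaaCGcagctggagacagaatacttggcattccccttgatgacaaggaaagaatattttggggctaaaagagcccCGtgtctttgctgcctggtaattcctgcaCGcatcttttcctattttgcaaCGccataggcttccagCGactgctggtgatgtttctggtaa
QPRT: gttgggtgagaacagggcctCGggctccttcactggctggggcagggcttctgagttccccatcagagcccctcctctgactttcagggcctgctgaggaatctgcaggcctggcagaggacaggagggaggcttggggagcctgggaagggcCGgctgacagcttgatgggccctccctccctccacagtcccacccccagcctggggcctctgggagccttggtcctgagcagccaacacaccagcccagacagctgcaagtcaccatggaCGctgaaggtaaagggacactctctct
STK32B: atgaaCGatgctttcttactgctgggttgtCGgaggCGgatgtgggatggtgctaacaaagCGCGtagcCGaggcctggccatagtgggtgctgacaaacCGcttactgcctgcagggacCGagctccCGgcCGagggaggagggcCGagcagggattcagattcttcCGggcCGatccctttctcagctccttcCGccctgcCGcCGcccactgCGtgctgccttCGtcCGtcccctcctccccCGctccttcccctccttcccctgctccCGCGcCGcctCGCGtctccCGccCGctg
PREX1: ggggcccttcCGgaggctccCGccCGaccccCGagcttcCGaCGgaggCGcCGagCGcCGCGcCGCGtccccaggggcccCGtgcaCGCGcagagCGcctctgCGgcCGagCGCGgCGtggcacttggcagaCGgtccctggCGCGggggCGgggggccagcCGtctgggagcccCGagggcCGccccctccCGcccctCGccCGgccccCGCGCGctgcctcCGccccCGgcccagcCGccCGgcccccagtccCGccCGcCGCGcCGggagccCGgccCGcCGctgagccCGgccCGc
The higher promoters hold 6 and 3 CG and the lower ones 27 and 49, where the median of all 35116 promoters in the table is 14. At least 27 CG occur in 28.2% of them and at least 49 in 1.6%. The genes shown were picked by the size of their difference and are too few to relate CG content to direction. Such a relation was not tested over the called promoters. The sequence lies inside the peak for IDH2, QPRT and STK32B, and just beyond it for PREX1, whose peak ends inside the gene.

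IDH2, which encodes the mitochondrial NADP-dependent isocitrate dehydrogenase, had the strongest promoter peak among the 12 genes of largest difference that were higher in clone 1 (chr15:90093866-90103001). It scored 394 with hIFNb and 202 without in clone 1, against 124 and 54 in clone 4, a difference of 1.77 ± 0.19 (limma, adjusted p = 2.03e-07). Clones 11 and 13 scored between 48 and 77, so clone 1 stood above all others. QPRT, whose enzyme makes a precursor of NAD from quinolinate, scored 32 and 34 in clone 1, against 7 and 13 in clone 4 (1.68 ± 0.32). GUCY1A1, a subunit gene of the nitric oxide receptor guanylate cyclase, scored 97 and 110 at its promoter in clone 1, against 38 and 28 in clone 4 (1.63 ± 0.21). SLC43A3, a nucleobase transporter gene, scored 24 and 25 against 7 and 2 (2.38 ± 0.37). At QPRT, GUCY1A1 and SLC43A3 clone 4 lay below clones 1, 11 and 13 in both treatments.

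Distal peaks completed the higher group, each within 50 kb of the named TSS, which is a statement of distance. Near TMPRSS5, a membrane serine protease gene, the peak scored 42 with hIFNb and 118 without in clone 1, against 14 and 21 in clone 4 (1.98 ± 0.25). In FLI1, which encodes an ETS transcription factor, it scored 93 and 54 against 35 and 9 (1.92 ± 0.26), and near SOX2, a stem-cell transcription factor gene, 29 and 23 against 10 and 4 (1.86 ± 0.39). The peak near GBP1, which encodes an interferon-induced GTPase, had the largest difference among the 12 higher genes, with 27 and 26 in clone 1, against 6 and 1 in clone 4 (2.88 ± 0.42). SPMIP2, ZNF827, HIP1 and IFT22 were the other 4, with differences between 1.64 and 2.05. HIP1 lies on chromosome 7 and was not called after its window mean was subtracted (adjusted p = 0.0734).

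Among genes lower in clone 1, PREX1, which encodes an activator of the GTPase Rac, had the clearest promoter difference (chr20:48822257-48827686). It scored 33 with hIFNb and 20 without in clone 1, against 151 and 131 in clone 4 (-2.41 ± 0.20, limma, adjusted p = 1.87e-09). Clones 11 and 13 scored between 65 and 107, so clone 1 was lowest and clone 4 highest. STK32B, a kinase gene on the part of chromosome 4 that was lower in clone 1, scored 4 and 8 at its promoter in clone 1, against 43 and 29 in clone 4 (-2.44 ± 0.36). NR5A2, a nuclear receptor gene of pancreas and liver on chromosome 1, scored 14 and 9 in clone 1, against 66 and 53 in clone 4 (-2.30 ± 0.32). Clones 11 and 13 scored between 15 and 37 at NR5A2, so clone 1 was lowest and clone 4 highest. A second peak of this gene was also lower in clone 1 (-1.79 ± 0.28).

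Distal peaks near KIRREL3, an adhesion molecule gene, scored 4 and 0 in clone 1, against 49 and 38 in clone 4 (-4.30 ± 0.50), and near MORC1, a germ-line ATPase gene, 40 and 3 against 162 and 45 (-2.76 ± 0.40). In CRB1, a gene of epithelial polarity on chromosome 1, a peak scored 2 and 5 in clone 1, against 21 and 54 in clone 4 (-3.04 ± 0.36), and clone 13 had 38 and 78. RAB3B, ZSWIM5 and SCCPDH on chromosome 1 and CKB on chromosome 14 completed the group, with differences between -2.34 and -2.15. These 4 were called after subtraction of the window mean as well, with adjusted p between 0.000124 and 0.00516.

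**Figure D3:**
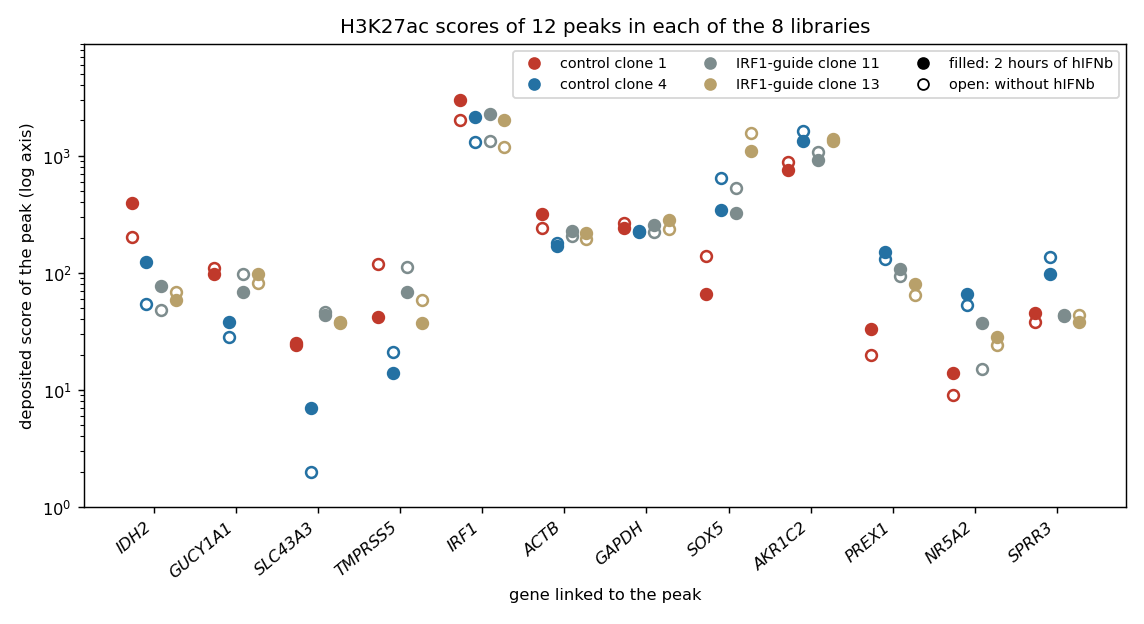
Deposited scores (log axis) of 12 peaks in the 8 libraries, with control clones 1 and 4 left of IRF1-guide clones 11 and 13 for each gene, filled for hIFNb and open for untreated. Clone 1 stands above all others at IDH2 (394 and 202) and below them at SOX5 (66 and 139) and PREX1 (33 and 20), while clone 4 stands below the others at GUCY1A1, SLC43A3 and TMPRSS5.

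The genes that served as checks differed less. GAPDH, a glycolysis enzyme gene used as a housekeeping reference, scored 239 with hIFNb and 265 without in clone 1, against 221 and 227 in clone 4 (0.17 ± 0.12, adjusted p = 0.418). ACTB, which encodes beta-actin and lies on chromosome 7, scored 318 and 240 in clone 1, against 169 and 181 in clone 4, and was called (0.66 ± 0.13, adjusted p = 0.00104). After subtraction of its window mean the ACTB difference was 0.11 (adjusted p = 0.722). IRF1, the target of the guide in clones 11 and 13, had a peak on chromosome 5 (chr5:132442197-132506408) that scored 3003 and 2014 in clone 1, against 2159 and 1306 in clone 4 (0.55 ± 0.06, adjusted p = 9.51e-07). Clones 11 and 13 scored between 1187 and 2265 there, close to clone 4. The peak that covers KRT19 (0.14 ± 0.05, adjusted p = 0.102), the EPCAM promoter (-0.25 ± 0.16, adjusted p = 0.374) and a peak in the body of CFTR (0.22 ± 0.29, adjusted p = 0.709) did not pass.

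HOX genes, the transcription factor genes of body-axis identity, were read as a group of 24 peaks. Of these, 10 were higher and 1 was lower in clone 1 (45.8% called, against 12.5% of all peaks). Their median was 0.58, against -0.06 for all peaks. For this list and those below, the shares of all peaks are 4.74% higher and 7.75% lower, and are not matched for score. The 9 HOXA peaks lie on chromosome 7 and 5 of them were higher, and the 12 HOXB peaks lie on chromosome 17 and 5 of them were higher. At HOXA3 the peak scored 522 with hIFNb and 603 without in clone 1, against 247 and 377 in clone 4 (0.88 ± 0.10, limma, adjusted p = 6.42e-07), and at HOXA4 103 and 174 against 49 and 73 (1.15 ± 0.16). At HOXB4 it scored 491 and 214 in clone 1, against 256 and 109 in clone 4 (0.95 ± 0.12, adjusted p = 1.96e-06), and at HOXB7 866 and 854 against 566 and 587 (0.58 ± 0.08). After subtraction of the window mean 2 HOXA and 5 HOXB peaks were called higher, with HOXB4 at 0.91 and HOXA4 at 0.70. The single HOXD peak, near HOXD12, was lower in clone 1, with 47 and 6 against 71 and 28, and was not called after that subtraction (adjusted p = 0.0746).

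Epithelial surface, keratin and mucin genes had 7 of 52 peaks higher and 2 lower in clone 1, with a median of 0.15. That is 17.3% called, against 12.5% of all peaks. CLDN4, a tight-junction gene on chromosome 7, scored 1023 with hIFNb and 1066 without in clone 1, against 603 and 705 in clone 4 (0.68 ± 0.08, limma, adjusted p = 1.76e-06). CLDN1 scored 50 and 37 at its promoter in clone 1, against 29 and 13 in clone 4 (1.10 ± 0.29), and TFF1, a secreted trefoil peptide gene, 236 and 376 against 183 and 214 (0.59 ± 0.13). A peak upstream of EPCAM was lower in clone 1, with 131 and 133 against 203 and 210 (-0.64 ± 0.13). Of 39 peaks of ductal and endodermal transcription factors 2 were higher and 2 lower (10.3% called, against 12.5% of all peaks). The higher ones included GATA6, an endoderm factor gene (115 and 103 in clone 1, 82 and 50 in clone 4, 0.76 ± 0.19). The lower ones both belonged to NR5A2.

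Basal and mesenchymal genes had 4 of 41 peaks higher and 8 lower (29.3% called, against 12.5% of all peaks). SPRR3, a squamous envelope gene on chromosome 1, scored 45 with hIFNb and 38 without in clone 1, against 98 and 136 in clone 4 (-1.46 ± 0.23, limma, adjusted p = 6.07e-05), and clones 11 and 13 lay at 38 to 44, so clone 4 was the high one. ZEB1, a repressor of epithelial genes, was lower at a peak within the gene, with 41 and 90 against 129 and 122 (-1.03 ± 0.22). CDH2, which encodes N-cadherin, was higher at its promoter, with 65 and 48 in clone 1, against 29 and 21 in clone 4 (1.15 ± 0.25). After subtraction of the window mean the list had 5 higher and 2 lower, and the lower call of S100A2 on chromosome 1 was lost (adjusted p = 0.732).

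NF-kB and inflammatory genes had 9 of 46 peaks higher and 4 lower (28.3% called, against 12.5% of all peaks). Of these 13 calls 5 lay on chromosome 4, all higher in clone 1: the neutrophil chemokine genes CXCL1, CXCL2, CXCL3 and CXCL5 and NFKB1, a subunit gene of NF-kB. These 5 were chosen after their values were seen. CXCL2 scored 752 with hIFNb and 1046 without in clone 1, against 591 and 651 in clone 4 (0.52 ± 0.09, limma, adjusted p = 0.000169). The 4 chemokine peaks had differences of 0.41 to 0.52, and none was called after subtraction of the window mean (adjusted p between 0.151 and 0.676), while NFKB1 was (0.53, adjusted p = 0.042). SAA1, an acute-phase gene on chromosome 11, scored 197 and 38 in clone 1, against 112 and 15 in clone 4 (1.05 ± 0.26), and was still called after that subtraction (adjusted p = 0.00607). PTGS2, which encodes cyclooxygenase 2 and lies on chromosome 1, was lower at 107 and 69 in clone 1, against 192 and 102 in clone 4 (-0.70 ± 0.17), a difference of -0.11 after subtraction (adjusted p = 0.754). The CSF3 promoter and a peak near TNFAIP3 were lower by 0.94 and 0.69 on the log2 scale. Neither was called after subtraction of the window mean (limma, adjusted p = 0.061 and 0.107), while a second CSF3 peak was (adjusted p = 0.0418). The TNFAIP3 call was also lost with each library centred on its median.

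Metabolic genes also split by locus. Of 46 peaks of xenobiotic and retinoid metabolism genes 6 were higher and 8 lower in clone 1 (30.4% called, against 12.5% of all peaks). The AKR1C cluster on chromosome 10, whose aldo-keto reductases act on steroids and carbonyls, gave 6 of the 8 lower peaks. AKR1C2 scored 759 with hIFNb and 890 without in clone 1, against 1345 and 1634 in clone 4 (-0.85 ± 0.07, limma, adjusted p = 7.33e-09), and AKR1C3 89 and 127 against 178 and 211 (-0.86 ± 0.15). Both were called after subtraction of the window mean as well, at -0.73 and -0.74. These genes are close copies of each other, so reads may have been shared between them. Glycolysis genes had 5 of 34 peaks higher and 3 lower (23.5% called, against 12.5% of all peaks). A distal peak near ENO1 on chromosome 1 was lower (329 and 240 against 487 and 346, -0.55 ± 0.10), but at -0.33 with adjusted p = 0.0566 after subtraction of the window mean. The ENO1 promoter peak was lower by less (-0.41 ± 0.09) and was not called after that subtraction (adjusted p = 0.273). The lactate exporter gene SLC16A3 was higher (550 and 430 against 351 and 340, 0.49 ± 0.11). Of 31 cholesterol gene peaks 1 was higher, HMGCS1 (0.57 ± 0.14), and 1 was lower (6.45% called).

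Of 45 peaks at pancreatic cancer driver loci 6 were higher and 3 lower in clone 1 (20% called, against 12.5% of all peaks). EGFR, which encodes the epidermal growth factor receptor and lies on chromosome 7, held 4 of the higher peaks. Its promoter scored 184 with hIFNb and 106 without in clone 1, against 70 and 61 in clone 4 (1.08 ± 0.17, limma, adjusted p = 6.90e-05), and the difference was 0.55 after subtraction of the window mean (adjusted p = 0.0615). A peak near MDM2, the gene of the p53 ubiquitin ligase, was lower, with 20 and 14 against 42 and 40 (-1.24 ± 0.31), and RNF43, a Wnt inhibitor gene, was lower at 251 and 240 against 352 and 320 (-0.45 ± 0.12). The RNF43 call was lost with each library centred on its median. Cell cycle genes had 3 of 44 peaks higher and 2 lower, 11.4% called against 12.5% of all peaks. None was called in either direction after subtraction of the window mean.

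Imprinted genes had 3 of 27 peaks higher and 3 lower (22.2% called, against 12.5% of all peaks). The lower ones were linked to DLK1 and RTL1, paternally expressed neighbours on chromosome 14. A distal peak near DLK1 scored 79 with hIFNb and 94 without in clone 1, against 175 and 191 in clone 4 (-1.08 ± 0.16, limma, adjusted p = 2.15e-05). The RTL1 promoter peak scored 168 and 170 against 280 and 327 (-0.84 ± 0.12). Both were also called after subtraction of the window mean (adjusted p = 0.000244 each). The MEST promoter and a distal peak near GRB10, both on chromosome 7, were higher, at 0.99 ± 0.15 and 0.74 ± 0.15. The GRB10 peak was not called after that subtraction (adjusted p = 0.528).

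The remaining lists held few calls. Housekeeping genes had 2 of 18 peaks higher, both at ACTB, and 0 lower (11.1% called, against 12.5% of all peaks). Protocadherin clusters had 1 of 12 higher and 0 lower (8.33% called), and cancer-testis genes 1 of 2 lower. Markers of other cell types had 3 of 20 higher and 1 lower (20% called, against 12.5% of all peaks). Higher were the promoter peak of CPA1 (0.46 ± 0.08) and peaks away from the promoter in PECAM1 (0.64 ± 0.16) and near COL1A1 (0.37 ± 0.11). A peak within PTPRC on chromosome 1 was lower (-0.84 ± 0.10). These PTPRC, CPA1 and COL1A1 peaks were not called after subtraction of the window mean. The promoter peaks of PECAM1 (0.30, limma, adjusted p = 0.106) and COL1A1 (-0.46, adjusted p = 0.226) were not called. MHC and antigen processing genes had 0 of 44 higher and 1 lower (2.27% called). The lower peak was that of NLRC5, an activator of MHC class I genes (-0.47 ± 0.14, limma, adjusted p = 0.0317). Its call was lost with each library centred on its median.

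**Figure D4:**
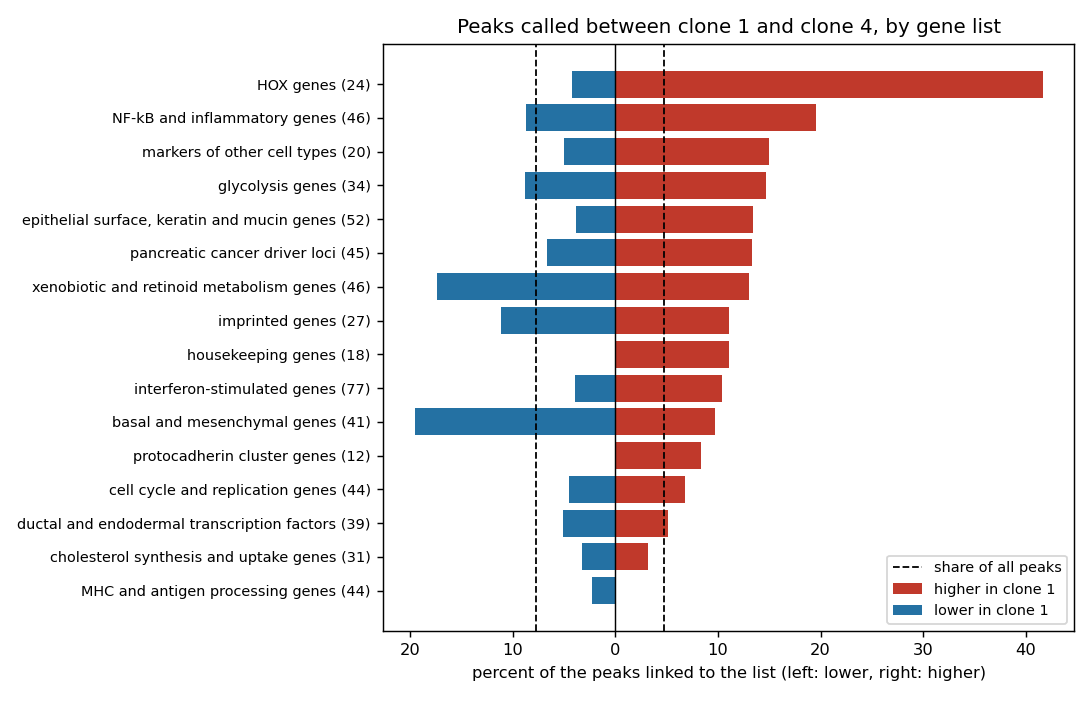
Percent of the peaks linked to each gene list with at least 10 peaks (number of peaks in brackets) called higher (right) or lower (left) in clone 1 than in clone 4, with dashed lines at the shares of all 31961 peaks, 4.74% higher and 7.75% lower. Among the lists drawn, HOX genes have the longest bar to the right, 10 of 24 peaks, and basal and mesenchymal genes the longest to the left, 8 of 41.

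Of 46 promoters of interferon-stimulated genes 7 were called higher in clone 1 (15.2%) and 0 lower, against 5.64% higher and 5.5% lower among all 11936 promoter peaks. These shares are not matched for score, and calls were more frequent at higher scores. The 7 all lie among the 7983 peaks with the highest mean scores, of which 891 were called higher and 1044 lower. Scores were higher in clone 1 at 35 of the 46 with hIFNb (76.1%) and at 36 without (78.3%), against 45.2% and 48.6% of all promoter peaks, a description with no test. Besides IRF1 the 7 were MX1, IFI27, DDX60, HERC6, IRF9 and ISG20. MX1, an antiviral GTPase gene, scored 918 with hIFNb and 202 without in clone 1, against 742 and 127 in clone 4 (0.49, limma, adjusted p = 0.00645). DDX60, an antiviral helicase gene on chromosome 4, scored 276 and 146 in clone 1, against 187 and 70 in clone 4 (0.80, adjusted p = 0.00116). IRF9, a subunit gene of the ISGF3 complex of interferon signalling, scored 372 and 210 in clone 1, against 302 and 139 in clone 4 (0.45, adjusted p = 0.0186). HERC6 on chromosome 4 was not called after subtraction of the window mean (adjusted p = 0.417). Over all 77 peaks of the list 8 were higher and 3 lower, with a median of 0.14 (14.3% called, against 12.5% of all peaks). The lower ones were distal peaks near EIF2AK2, OAS2 and IFIT5.

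The response to hIFNb itself is a single difference per clone and carries no test. At the 46 promoters the median response was 1.41 in clone 1 and 1.43 in clone 4, and it was larger in clone 1 at 18 and in clone 4 at 28. Over all 31961 peaks the median response was -0.02 in clone 1 and 0.02 in clone 4. ISG15 scored 1083 with hIFNb and 512 without in clone 1, against 986 and 467 in clone 4, a response of 1.08 in each clone.

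**Figure D5:**
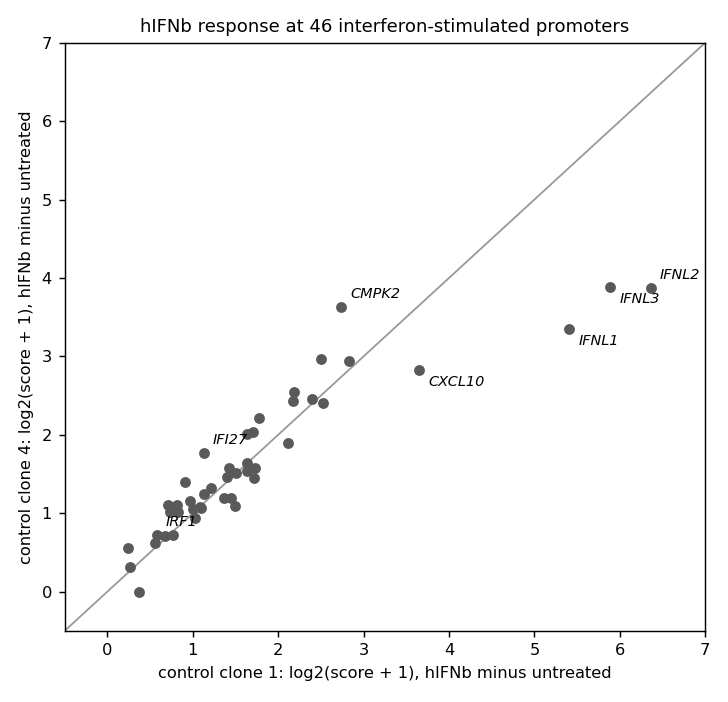
Response to 2 hours of hIFNb at 46 interferon-stimulated promoters, as the change in log2(score + 1), in control clone 1 (horizontal axis) and control clone 4 (vertical axis), with the line of equal response. Most points lie near the line, with medians of 1.41 in clone 1 and 1.43 in clone 4, and IFNL1, IFNL2 and IFNL3 lie to the right of it.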

How the data were processed

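H3K27ac was measured by ChIP-seq in 8 libraries, 1 per clone and treatment. The authors aligned reads with Bowtie2 to GRCh38 (hg38), per the submitters' processing notes. The deposited score of each of 31961 peaks is a normalised peak count rounded to whole numbers; the labels and the table name no peak caller, no normalisation method and no pooling of libraries. The depth in reads is unknown.

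Differences were fitted with limma 3.58.1 in R 4.3.3 on log2(score + 1), with a pseudocount of 1, for peaks above 0 in at least 2 libraries, which all peaks were. The model had a mean per clone and an hIFNb effect separately in control and IRF1-guide clones, leaving 2 residual degrees of freedom, with Benjamini-Hochberg adjustment over all features at 0.05. The prior degrees of freedom of limma were 25.38 for peaks and infinite for chromosomes and for windows. Chromosome and window p-values thus rest on a spread pooled over all chromosomes or windows, and their size overstates the evidence from 8 libraries. It was tested on simulated data. Chromosomes needed at least 20 peaks and windows of 10 Mb at least 10. On this scale fold changes of low scores are understated. Libraries were matched by treatment, which takes the place of a replicate block.

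Peaks were linked to the nearest protein-coding TSS within 50 kb of their centre, from the deposited TSS names and distances; RefSeq GRCh38.p14 starts were added after the table was seen, since it names few starts per peak. Of the deposited names 92.9% matched a RefSeq symbol. Named were up to 12 genes per direction with the largest called difference of like sign in both treatments and a score of at least 20 in the higher clone, up to 4 called genes per list, and GAPDH, ACTB, IRF1, CFTR, KRT19 and EPCAM. Other genes named were chosen after their values were seen. The members and lists were chosen with earlier results of these data known. Alternatives covered the pseudocount, a score filter, 2 scalings, the libraries fitted, the hIFNb terms, each library left out, a minimum difference, window means, and other summaries of windows and chromosomes. A few named genes are not reported here.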

Additional observations from a re-analysis of the deposited data

Results flagged for a closer look

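The difference between clone 1 and clone 4 was set against the difference between clone 11 and clone 13 in the same fit, and 5 chromosomes differed between the pairs (limma, Benjamini-Hochberg over 23 chromosomes; this comparison was added after the data were seen). On chromosome 7 the control pair exceeded the IRF1-guide pair by 0.58 on the log2 scale (adjusted p = 1.90e-16). It lay below the IRF1-guide pair on chromosome 20 (-0.44, adjusted p = 1.83e-12), chromosome 1 (-0.31, adjusted p = 3.30e-08), chromosome 10 (-0.25, adjusted p = 2.18e-06) and chromosome 15 (-0.15, adjusted p = 0.00583). The comparison of the pairs was not repeated under other scalings. Between clones 1 and 4, chromosomes 10 and 15 were each called in 16 of 20 settings. On chromosome 20 the larger part came from the IRF1-guide pair, 0.33 against -0.11 in the control pair, with clone 13 the lowest clone.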

How the results depend on the processing

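Peaks called between clones 1 and 4 (3990) numbered 1941 from control libraries alone, 2465 with 1 hIFNb effect, 32 with no replicate block (no matching by treatment), 1102 with a difference of at least 1, 2639 after subtraction of window means, and 14 to 1866 with a library left out; pseudocount 5 gave 4124 and a mean score of at least 20 gave 4011. Between clones 11 and 13 (4151) the same settings gave 1047 (IRF1-guide libraries alone), 2484, 2 and 1114, and 122 to 975 with a library left out. Chromosomes called (15) numbered 5 with libraries centred on their median, 3 with no replicate block, 2 with a difference of at least 0.2, 8 by summed score, 7 at promoter peaks, and 2 to 15 with a library left out. Windows called (156) numbered 100 (58 higher, 42 lower) when centred, 29 with no replicate block, 79 at 0.2, 85 by median, 246 of 552 at 5 Mb, 103 at promoter peaks, and 71 to 142 with a library left out; quantile normalisation gave 68 higher and 56 lower, and summed scores 63 and 84. Small chromosome differences changed sign: under quantile normalisation 11 (0.05), 13 (0.07), 16 (0.07), 18 (0.09), 3 (0.00), 4 (0.05) and X (0.02); centred on the median 12 (0.00), 18 (0.09), 22 (0.00), 3 (0.01) and X (0.02); by summed score 20 (0.01). The cause was not tested. No named peak or window changed sign. Of 76 named calls, 2 (TMEM233 and PREX1) held with no replicate block. The 4 control libraries limit every call, and read depth is unknown.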

Other observations

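The type III interferon genes IFNL1, IFNL2 and IFNL3, which encode epithelial antiviral cytokines, were almost without H3K27ac in untreated cells of either control clone. IFNL3 scored 177 with hIFNb and 2 without in clone 1, against 88 and 5 in clone 4. IFNL2 scored 163 and 1 in clone 1, against 87 and 5 in clone 4, and IFNL1 84 and 1 against 50 and 4. The change in log2(score + 1) with hIFNb was 5.89 in clone 1 and 3.89 in clone 4 at IFNL3, 6.36 and 3.87 at IFNL2, and 5.41 and 3.35 at IFNL1. Each response rests on 1 library per clone and treatment and has no test, untreated scores this low make the log2 change sensitive to a few counts, and IFNL2 and IFNL3 are close copies whose shared reads were not separated here. These genes were chosen after their values were seen.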
